A study of Mus musculus with 17 samples.

Results

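Chemokine receptors guide white blood cells to the places where their ligands are made. Messenger RNA of 8 of them (Cxcr3, Cxcr4, Cxcr6, Ccr2, Ccr4, Ccr6, Ccr8 and Cx3cr1) was compared between the thymi of 17 mice that had lost 1 or both copies of the T-cell factor Tcf1. The receptors were chosen by name, as receptors of lymphocytes and myeloid cells, and all 8 of 8 were found among the 18193 genes of the array that have a probe set with a single gene symbol. Each receptor was followed through its probe set of highest mean over the 17 arrays, and all 8 passed the filter on low signal (above the 40th percentile of the array on at least 4 arrays), Ccr8 on 5 arrays, Cxcr6 and Cx3cr1 on 13 and the other receptors on 17. Below that percentile lay Ccr8 in all 8 lymphomas, 2 of 4 Tcf1-/- and 2 of 5 Tcf1+/- thymi, and Cxcr6 and Cx3cr1 in 4 of 8 lymphomas each. No detection calls were used here, so folds against these lymphomas are also given with the percentile as a floor.

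There were 3 groups, all on the C57Bl/6 background: 8 lymphomas from mice with the Tcf1-/- genotype (ΔVII/ΔVII), thymi of 4 Tcf1-/- (ΔVII/ΔVII) mice that had no tumor, and control thymi of 5 Tcf1+/- mice (wt/ΔVII). The deletion is carried by every cell of the mouse, and the controls also carry 1 deleted allele, so no thymus with both alleles intact was compared. The study asked which genes separate tumors from the tumor-free thymi. Neither the age nor the tumor phenotype of each mouse was in the labels, and the gene Tcf7, which encodes Tcf1, was not analysed here.

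Chemokine receptors are cell surface proteins that span the membrane several times and signal through inhibitory G proteins, so that a cell crawls towards higher ligand. In the thymus Cxcr4 and its ligand Cxcl12 hold early thymocytes in the cortex, whereas Ccr4, Ccr7 and Ccr9 take part in the moves of thymocytes between cortex and medulla. Cxcr3, Cxcr6 and Ccr6 are best known from effector, memory and innate-like lymphocytes (and Ccr6 also from B cells), Ccr2 and Cx3cr1 from monocytes and macrophages, and Ccr8 from regulatory and type-two helper T cells.

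Values are log2 signals after Robust Multichip Average (RMA) processing by the authors, with 1 array for each mouse. The number of arrays limits the precision, and signals of different probe sets were not set against each other. A set of 4 arrays (lymphomas 1 and 2, controls 1 and 2) stood apart. The interquartile range of their log2 signals was 2.93 to 3.06, against 3.49 to 3.75 on the other 13 arrays. No Tcf1-/- thymus without tumor was in that set, so for these thymi no comparison within it could be made. Signal of Y-linked genes was present in 2 of 8 lymphomas, 4 of 4 Tcf1-/- thymi and 4 of 5 Tcf1+/- thymi. This signal was therefore uneven between the groups, and the sex of the mice was not in the labels.

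Tcf1 binds DNA at the TCF/LEF core, and the sequence just upstream of each receptor gene was searched for it to show where the letters occur. Sequences of 250 bases before the annotated start came from RefSeq (mouse build GRCm38.p6), in which 8 of 8 receptors matched, with 9 windows since Ccr6 has 2. The motifs searched on both strands were the TCF/LEF core CTTTGA, the T-box core TCACACC and the STAT core TTCNNNGAA, which are present in 13.8%, 3.33% and 7.02% of the 32851 promoter windows of that length. The TCF/LEF core was found in the windows of Cxcr6, Ccr6 and Ccr4, and the T-box core in none. Shown are 1 window for each of these 3 genes, on the strand of the gene, with the core in capitals, because Cxcr6 and Ccr6 had higher signal in Tcf1-/- than in Tcf1+/- thymi and Ccr4 did not pass that test.
Cxcr6 upstream window, chr9:123806227-123806476, plus strand: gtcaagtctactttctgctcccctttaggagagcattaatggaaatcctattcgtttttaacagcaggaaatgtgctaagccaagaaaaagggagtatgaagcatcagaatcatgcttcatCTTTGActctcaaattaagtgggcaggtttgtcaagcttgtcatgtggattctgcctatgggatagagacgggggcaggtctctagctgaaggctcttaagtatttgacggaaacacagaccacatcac
Ccr6 second upstream window, chr17:8242276-8242525, plus strand: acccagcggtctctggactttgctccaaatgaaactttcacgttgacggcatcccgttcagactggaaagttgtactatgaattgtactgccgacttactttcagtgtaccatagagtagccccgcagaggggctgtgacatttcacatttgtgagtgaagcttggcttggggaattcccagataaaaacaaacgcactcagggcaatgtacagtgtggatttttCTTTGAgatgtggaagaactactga
Ccr4 upstream window, chr9:114496545-114496794, minus strand: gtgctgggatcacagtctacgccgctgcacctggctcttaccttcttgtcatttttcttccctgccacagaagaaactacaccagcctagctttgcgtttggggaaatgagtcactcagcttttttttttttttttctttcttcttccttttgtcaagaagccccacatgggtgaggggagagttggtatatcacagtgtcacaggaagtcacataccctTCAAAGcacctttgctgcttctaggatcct
Counting back from the start of the gene, the core begins at base -129 in Cxcr6, at -25 in Ccr6 and at -30 in Ccr4, where it lies on the opposite strand and reads TCAAAG. The other window of Ccr6 holds it at -156, also on the opposite strand, inside 1 of 2 STAT matches (at -157 and -120). The windows of Cxcr3, Cxcr4, Ccr2, Ccr8 and Cx3cr1 hold none of the 3 motifs. A match is a run of letters and not a binding site, and its absence says only that these letters are not in the window.

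In the same build 5 of the 8 receptors are on chromosome 9 (Ccr4, Cx3cr1, Ccr8, Cxcr6 and Ccr2), and Cxcr4, Ccr6 and Cxcr3 are on chromosomes 1, 17 and X. Cx3cr1 and Ccr8 are neighbors with 0 coding genes between them, yet the signal of Cx3cr1 differed between Tcf1-/- and Tcf1+/- thymi and that of Ccr8 did not pass the test, as described next.

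**Figure D1:**
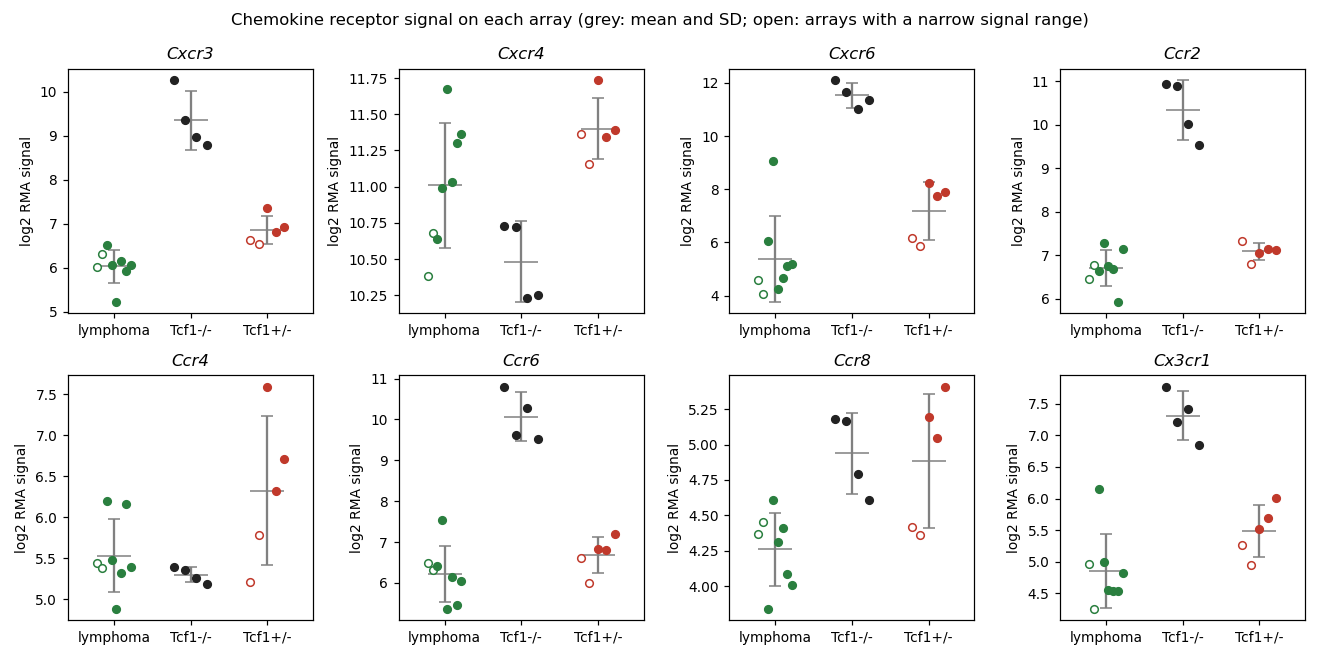
Log2 RMA signal (vertical axis) of the 8 receptors on each of the 17 arrays, by group (horizontal axis, lymphoma, Tcf1-/-, Tcf1+/-), each point 1 mouse, grey lines the mean and SD, open points the 4 arrays that stood apart. For Cxcr3, Cxcr6, Ccr2, Ccr6 and Cx3cr1 every Tcf1-/- point lies above every point of the other groups, and for Cxcr4 every Tcf1-/- point lies below every Tcf1+/- point.

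The first comparison asked how the thymus without Tcf1 differed before any tumor was seen. Signals of 5 receptors (Cxcr6, Ccr6, Ccr2, Cxcr3 and Cx3cr1) were 3.56 to 20.4 times as high in Tcf1-/- thymi as in Tcf1+/- thymi, that of Cxcr4 was 1.89 times lower, and Ccr4 and Ccr8 did not pass the test. Of all 13755 genes tested with limma, 14.8% were called at a Benjamini-Hochberg adjusted p under 0.05, 10.1% higher and 4.7% lower. The receptors had a median log2 fold change of 2.16, against -0.01 over all genes tested. In such bulk RNA a larger share of cells that carry a receptor and more RNA in each of them cannot be told apart. A larger share can come from more of these cells or from fewer other cells, and cell numbers were not used here.

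The second comparison set the lymphomas against the tumor-free Tcf1-/- thymi, which share the mutation. Signals of 6 receptors were lower in lymphomas, and Cxcr4 and Ccr4 did not pass the test. The same 5 were lower by 5.52 to 71.8 times (4.94 to 61.3 with the floor). Ccr8 was lower by 1.15 times with the floor, below which all 8 lymphomas and 2 of 4 Tcf1-/- thymi lay. Over all genes 14.7% were called, 6.34% higher and 8.35% lower. The median was -2.89 for the receptors and 0.10 for all genes. The third comparison set the lymphomas against the Tcf1+/- controls. Only Cxcr3 passed the test, lower in lymphomas, and the other 7 did not pass it. Here 12.7% of all genes were called, 8.51% higher and 4.21% lower, the median was -0.63 for the receptors and 0.06 for all genes, and 66.9% of the called genes were higher (56.6% after quantile normalization between the arrays). The 3 comparisons share their arrays in pairs, so their values are given side by side and not as independent results.

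**Figure D2:**
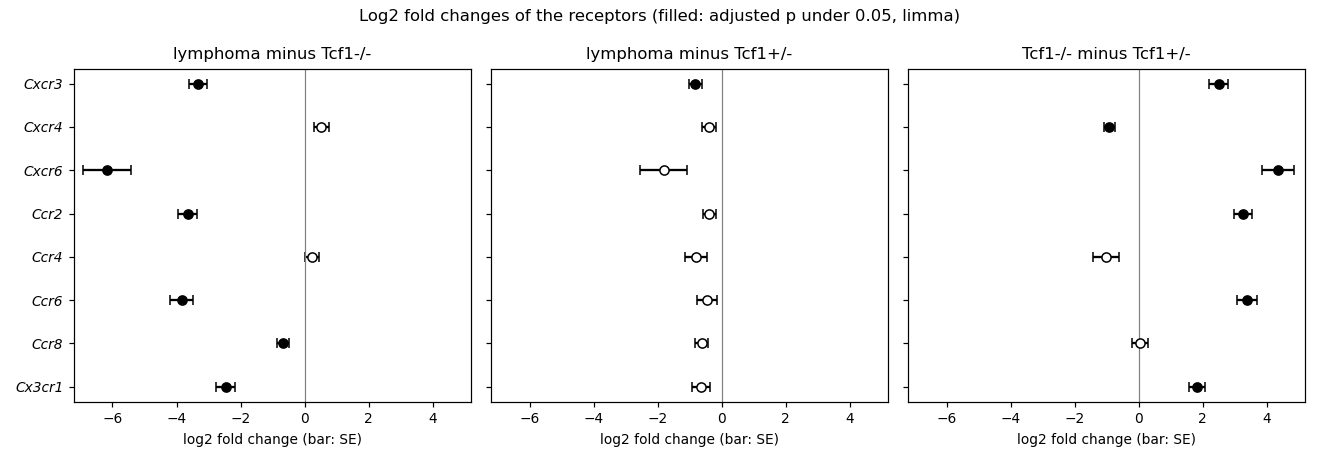
Log2 fold change (horizontal axis, bars the SE) of each receptor (rows) in the 3 comparisons, with filled points at an adjusted p under 0.05 in limma. The 5 receptors with filled points right of 0 in Tcf1-/- minus Tcf1+/- lie left of 0 in lymphoma minus Tcf1-/-, and in lymphoma minus Tcf1+/- only Cxcr3 is filled.

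Among the receptors of effector and innate-like lymphocytes, Cxcr6, the receptor of Cxcl16 on activated, memory and natural killer T cells, had the largest differences of the 8. In lymphomas its log2 signal ran between 4.05 and 9.07 with a median of 4.90. In Tcf1-/- thymi it was 12.12, 11.66, 11.03 and 11.34, against 6.16, 5.86, 8.25, 7.75 and 7.90 in Tcf1+/- thymi. All 4 Tcf1-/- thymi were above all other mice, and 6 of the 8 lymphomas were below the lowest control, while lymphoma 4 was above the highest. The log2 fold change was 4.35 (SE 0.50, limma adjusted p = 0.000416) in Tcf1-/- over Tcf1+/- thymi, a 20.4-fold difference. It was -6.17 (SE 0.75, limma adjusted p = 0.000164) in lymphomas over Tcf1-/- thymi, a 71.8-fold difference as measured and 61.3-fold with the floor, since 4 of the 8 lymphomas lay below it. The lymphomas did not pass the test against Tcf1+/- thymi (-1.81 as measured, SE 0.73, limma adjusted p = 0.131). With the floor the difference was -1.58. That the measured difference did not pass the test depended on 1 mouse: without lymphoma 4 it was -2.34, with a limma adjusted p of 0.00469. With 1 mouse left out the difference ran between -2.34 and -1.55. A second probe set of Cxcr6 gave 4.18 for Tcf1-/- over Tcf1+/- thymi and -5.57 for lymphomas over Tcf1-/- thymi.

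Cxcr3 is the receptor of Cxcl9 and Cxcl10 on interferon-producing T cells and natural killer cells. Its log2 signal lay between 5.21 and 6.52 in lymphomas, with a median of 6.06. The Tcf1-/- thymi had 10.28, 9.37, 8.97 and 8.79, and the Tcf1+/- thymi 6.64, 6.54, 7.36, 6.81 and 6.93. The 3 groups were separate, with all lymphomas below all controls and all controls below all Tcf1-/- thymi. Signal was 5.64-fold higher in Tcf1-/- than in Tcf1+/- thymi (log2 fold change 2.50, SE 0.30, limma adjusted p = 0.000502). It was lower in lymphomas than in Tcf1-/- thymi by 3.32 on the log2 scale (SE 0.28, limma adjusted p = 1.19e-05). Lymphomas were also 1.77-fold lower than Tcf1+/- thymi (-0.83, SE 0.21, limma adjusted p = 0.0172), and the exact two-sided permutation p was 0.000777, the smallest that 8 against 5 arrays allow. This call was lost without control 3 (-0.70, limma adjusted p = 0.0558), after subtraction of the Abl1 signal (adjusted p = 0.105) and when Y-linked signal entered the fit (adjusted p = 0.110).

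Ccr6, the receptor of Ccl20 on B cells and on interleukin-17-producing T cells, followed the same order. Lymphomas had log2 signals of 5.36 to 7.54 with a median of 6.24. Signal was 10.80, 9.62, 10.29 and 9.53 in Tcf1-/- thymi, against 6.60, 5.99, 6.82, 6.79 and 7.20 in Tcf1+/- thymi. The Tcf1-/- thymi were clear of both other groups, whereas lymphomas and controls overlapped. The difference was 10.4-fold between Tcf1-/- and Tcf1+/- thymi (log2 fold change 3.38, SE 0.31, limma adjusted p = 0.000158). Lymphomas were 14.3-fold lower than Tcf1-/- thymi (-3.84, SE 0.37, limma adjusted p = 3.44e-05) and did not pass the test against Tcf1+/- thymi (-0.46, SE 0.32, limma adjusted p = 0.428).

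Of the receptors of monocytes and macrophages, Ccr2 brings monocytes out of the bone marrow and into tissue in response to Ccl2, Ccl7 and Ccl12. Its log2 signal was 5.92 to 7.27 in lymphomas, with a median of 6.71. It was 10.95, 10.90, 10.03 and 9.53 in Tcf1-/- thymi and 7.34, 6.80, 7.06, 7.15 and 7.11 in Tcf1+/- thymi. Every Tcf1-/- thymus was above every other mouse, and lymphomas and controls overlapped. Signal was 9.58-fold higher in Tcf1-/- than in Tcf1+/- thymi (log2 fold change 3.26, SE 0.29, limma adjusted p = 0.000137). It was 12.5-fold lower in lymphomas than in Tcf1-/- thymi (-3.65, SE 0.29, limma adjusted p = 9.98e-06), and the difference between lymphomas and Tcf1+/- thymi did not pass the test (-0.39, SE 0.20, limma adjusted p = 0.256).

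Ccr2 has 4 probe sets, and they did not all move alike. In a fit of 24735 probe sets, the probe set ranked 3 by brightness gave 3.23 for Tcf1-/- over Tcf1+/- thymi (limma adjusted p = 0.000882) and that ranked 4 gave 1.73 (0.000475). The second brightest gave 0.23 (limma adjusted p = 0.728) for Tcf1-/- over Tcf1+/- thymi and -0.49 (0.246) for lymphomas over Tcf1-/- thymi. Lymphomas differed from Tcf1+/- thymi by -1.01 on the probe set ranked 3 (limma adjusted p = 0.0304). The second brightest was highest on the arrays that stood apart, and its signal there overlapped that of the Tcf1-/- thymi. On the other arrays this probe set was at 7.16 to 7.32 in Tcf1-/- thymi, 6.47 to 6.67 in controls 3 to 5 and 6.32 to 6.65 in lymphomas 3 to 8. How far the array set took part in its values was not tested.

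Cx3cr1, the fractalkine receptor of patrolling monocytes, tissue macrophages and cytotoxic lymphocytes, had log2 signals of 4.25 to 6.15 in lymphomas (median 4.68). The Tcf1-/- thymi had 7.77, 7.21, 7.42 and 6.85, against 5.26, 4.94, 5.52, 5.69 and 6.01 in Tcf1+/- thymi. Again the Tcf1-/- thymi stood above all others, and 1 lymphoma (mouse 3) lay above the highest control. Signal was 3.56-fold higher in Tcf1-/- than in Tcf1+/- thymi (log2 fold change 1.83, SE 0.25, limma adjusted p = 0.00102). It was 5.52-fold lower in lymphomas than in Tcf1-/- thymi, or 4.94-fold with the floor, below which 4 of the 8 lymphomas lay (-2.46, SE 0.30, limma adjusted p = 0.000189). The difference between lymphomas and Tcf1+/- thymi was -0.63 as measured (SE 0.28, limma adjusted p = 0.170) and -0.47 with the floor. Without lymphoma 3 the measured difference passed the test at -0.82 (limma adjusted p = 0.0157). The other probe set of Cx3cr1 gave 0.66 for Tcf1-/- over Tcf1+/- thymi (limma adjusted p = 0.0575), -0.61 for lymphomas over Tcf1-/- thymi (0.0771) and 0.04 for lymphomas over Tcf1+/- thymi (0.928), so the calls for Cx3cr1 rest on 1 of its 2 probe sets.

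**Figure D3:**
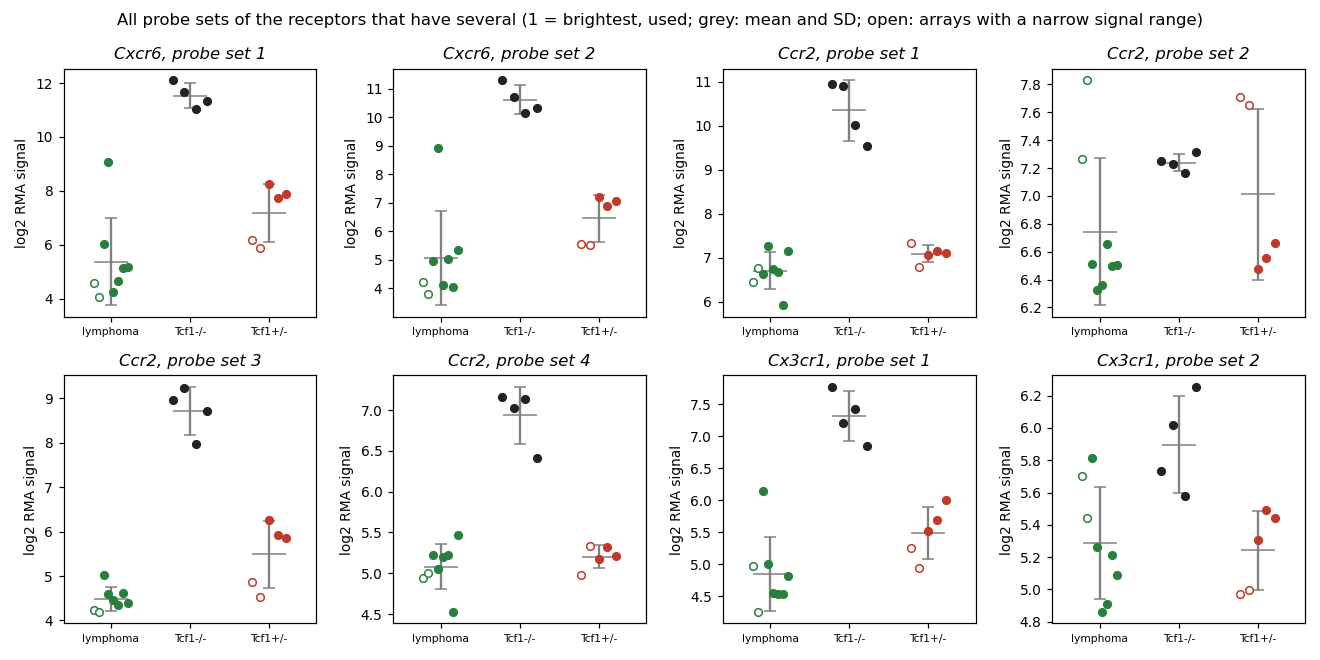
Log2 RMA signal (vertical axis) of every probe set of Cxcr6, Ccr2 and Cx3cr1 by group (horizontal axis), each point 1 mouse, grey lines the mean and SD, open points the 4 arrays that stood apart. The Tcf1-/- points are above all others on both probe sets of Cxcr6 and on 3 of the 4 of Ccr2, but not on probe set 2 of Ccr2 or of Cx3cr1.

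Cxcr4 and Ccr4, tied above to thymocyte movement, behaved otherwise. Cxcr4 was the 1 receptor called lower in Tcf1-/- than in Tcf1+/- thymi. In lymphomas its log2 signal was 10.39 to 11.68 with a median of 11.01. It was 10.73, 10.72, 10.23 and 10.25 in Tcf1-/- thymi and 11.37, 11.16, 11.74, 11.34 and 11.39 in Tcf1+/- thymi. The Tcf1-/- and Tcf1+/- thymi did not overlap, and the lymphomas spanned both. Cxcr4 fell by 0.92 on the log2 scale in Tcf1-/- against Tcf1+/- thymi (SE 0.18, limma adjusted p = 0.00635). The lymphomas differed from Tcf1-/- thymi by 0.53 (SE 0.23, limma adjusted p = 0.153) and from Tcf1+/- thymi by -0.39 (SE 0.21, limma adjusted p = 0.267), and neither passed the test. Without the 4 arrays that stood apart, the lymphomas exceeded the Tcf1-/- thymi in Cxcr4 (0.68, limma adjusted p = 0.0436).

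Ccr4 binds Ccl17 and Ccl22 and is carried by thymocytes after positive selection and by helper and regulatory T cells. Its log2 signal was 4.88 to 6.20 in lymphomas (median 5.42). It was 5.40, 5.35, 5.26 and 5.19 in Tcf1-/- thymi and 5.21, 5.79, 7.59, 6.32 and 6.71 in Tcf1+/- thymi. The Tcf1-/- thymi lay within a narrow band, and the controls were spread widely, with control 1 inside that band. The log2 fold change was -1.02 (SE 0.40, limma adjusted p = 0.127) in Tcf1-/- over Tcf1+/- thymi. It passed the test without control 1 (-1.30, limma adjusted p = 0.0309), and also when the 4 arrays that stood apart were left out (-1.58, limma adjusted p = 0.00775). The lymphomas differed by 0.23 (SE 0.23, limma adjusted p = 0.529) from Tcf1-/- thymi and by -0.79 (SE 0.34, limma adjusted p = 0.158) from Tcf1+/- thymi. The difference from Tcf1+/- thymi was -0.08 within the 4 arrays that stood apart and -1.30 on the rest.

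Ccr8, the receptor of Ccl1 and, in the mouse, of Ccl8, had the lowest share of arrays above the filter. Lymphomas had log2 signals of 3.84 to 4.61 with a median of 4.34. The Tcf1-/- thymi had 5.18, 5.17, 4.79 and 4.61, against 4.42, 4.36, 5.19, 5.05 and 5.41 in Tcf1+/- thymi. Controls 1 and 2, both on arrays that stood apart, were lower than the other controls, and the Tcf1-/- thymi lay inside the range of the controls. Tcf1-/- and Tcf1+/- thymi differed by 0.05 (SE 0.25, limma adjusted p = 0.929), and the sign turned to -0.28 without the 4 arrays. With the floor, lymphomas were 1.15-fold lower than Tcf1-/- thymi. All 8 lymphomas and Tcf1-/- mice 3 and 4 lay below it, so that fold is not a limit on the size. As measured, the difference was -0.68 (SE 0.18, limma adjusted p = 0.0221) and was called. That call was lost without Tcf1-/- mouse 1 (adjusted p = 0.0900) or mouse 2 (0.0817), after subtraction of Abl1 (-0.58, adjusted p = 0.301) and when Y-linked signal entered the fit (-0.44, adjusted p = 0.403). Against Tcf1+/- thymi, 3 of which lay above the floor, the lymphomas were at -0.63 as measured (SE 0.20, limma adjusted p = 0.0566). With the floor they were at -0.31. The measured difference passed the test without control 1 (-0.74, limma adjusted p = 0.0389), control 2 (-0.76, 0.0324) or lymphoma 4 (-0.67, 0.0447), and it was 0.02 within the 4 arrays and -1.01 on the rest.

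For each receptor the exact two-sided permutation test over the mice gave the smallest p its design allows wherever limma called a difference, 0.00794 for 4 Tcf1-/- against 5 Tcf1+/- thymi and 0.00202 for 8 lymphomas against 4 Tcf1-/- thymi. Such a p needs groups that do not overlap, so it restates the separation of the points. The share of all genes tested that separate in this way is not given here. On the arrays outside the set that stood apart (4 Tcf1-/- and 3 Tcf1+/- thymi) the log2 fold changes of Tcf1-/- over Tcf1+/- thymi were 3.57 for Cxcr6, 3.12 for Ccr6, 3.25 for Ccr2, 2.32 for Cxcr3, 1.57 for Cx3cr1 and -1.01 for Cxcr4. All 6 calls of this comparison were kept on those arrays. For Cxcr6 the lymphomas differed from Tcf1+/- thymi by -1.70 within the 4 arrays and by -2.24 on the others, and for Cxcr3 by -0.43 and -1.05.

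The receptors were also compared by their pattern over the 17 arrays, as a description, since the arrays share groups and normalization. Cxcr3, Cxcr6, Ccr2, Ccr6 and Cx3cr1 had pairwise Pearson correlations of 0.89 to 0.96. With the group means removed these were 0.26 to 0.71. Among 12908 genes the closest to Ccr6 were H2-Ob (0.974), Ms4a1 (0.973), which encodes the B-cell protein CD20, and Fcrla (0.972). Those closest to Cx3cr1 were H2-Eb1 (0.958), Cd74 (0.958) and H2-Ab1 (0.956), genes of antigen presentation by MHC class II. For Ccr2 they were Rnase6 (0.983), Dennd5b (0.976) and H2-Ob (0.974), for Cxcr3 Plcg2 (0.977), Cmpk2 (0.972) and Treml4 (0.969), and for Cxcr6 Acot11 (0.958), Serpinb1a (0.957) and Bank1 (0.955). The closest genes were less alike for Cxcr4 (Bcdin3d 0.889, Elmod2 0.858, Zfp707 0.857), Ccr8 (Ccdc186 0.875, Cd209e 0.874, Plcb4 0.871) and Ccr4 (Ccdc51 0.842, Exog 0.829, Gimap9 0.828). With the group means removed, the first-named gene correlated at 0.872 for Ccr8, 0.819 for Cxcr4 and 0.756 for Ccr4. The same value was 0.819 for Ccr2, 0.792 for Cxcr3, 0.785 for Ccr6, 0.758 for Cxcr6 and 0.741 for Cx3cr1. The genes were picked by their correlation over all 17 arrays, so these values cannot show whether the contrast holds within the groups.

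Ligands of the 8 receptors were measured in the same RNA, and 11 of 14 passed the filter. In Tcf1-/- over Tcf1+/- thymi 4 of the 11 were higher, with a median of 1.15 over the ligands. Cxcl10 (2.54, limma adjusted p = 0.00575) and Cxcl9 (2.24, adjusted p = 0.00867), both interferon-induced ligands of Cxcr3, were higher, as were Cxcl16 (1.15, adjusted p = 0.0186), the ligand of Cxcr6, and Ccl12 (1.15, adjusted p = 0.0499), a ligand of Ccr2. In lymphomas over Tcf1-/- thymi 5 of the 11 were lower. They were Cxcl10 (-2.75, limma adjusted p = 0.000783), Cxcl9 (-2.70, 0.00289), Cxcl12 (-1.60, 0.0108), Cxcl16 (-1.32, 0.0149) and Ccl22 (-1.10, 0.0260). Against Tcf1+/- thymi only Ccl22, a ligand of Ccr4, was lower in lymphomas (-0.75, limma adjusted p = 0.0292). The receptor Cxcr4 and its ligand differed in Tcf1-/- over Tcf1+/- thymi, with -0.92 for Cxcr4 and 1.19 for Cxcl12 (limma adjusted p = 0.125), which did not pass the test.

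Several ligands passed no test in any comparison. Ccl20, the ligand of Ccr6, was at -0.23 in Tcf1-/- over Tcf1+/- thymi and 0.20 in lymphomas over Tcf1-/- thymi, and Cx3cl1, the ligand of Cx3cr1, at 0.10 and -0.05. Ccl17 was at 0.96 and -0.71, Ccl1 at 0.79 and -0.75, and Ccl8 at 1.39 and 1.36. Ccl8 was the ligand with the largest value in lymphomas over Tcf1+/- thymi (2.76, limma adjusted p = 0.0691), with log2 signals of 5.95 to 11.81 in lymphomas against 5.66 to 7.09 in Tcf1+/- thymi.

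**Figure D4:**
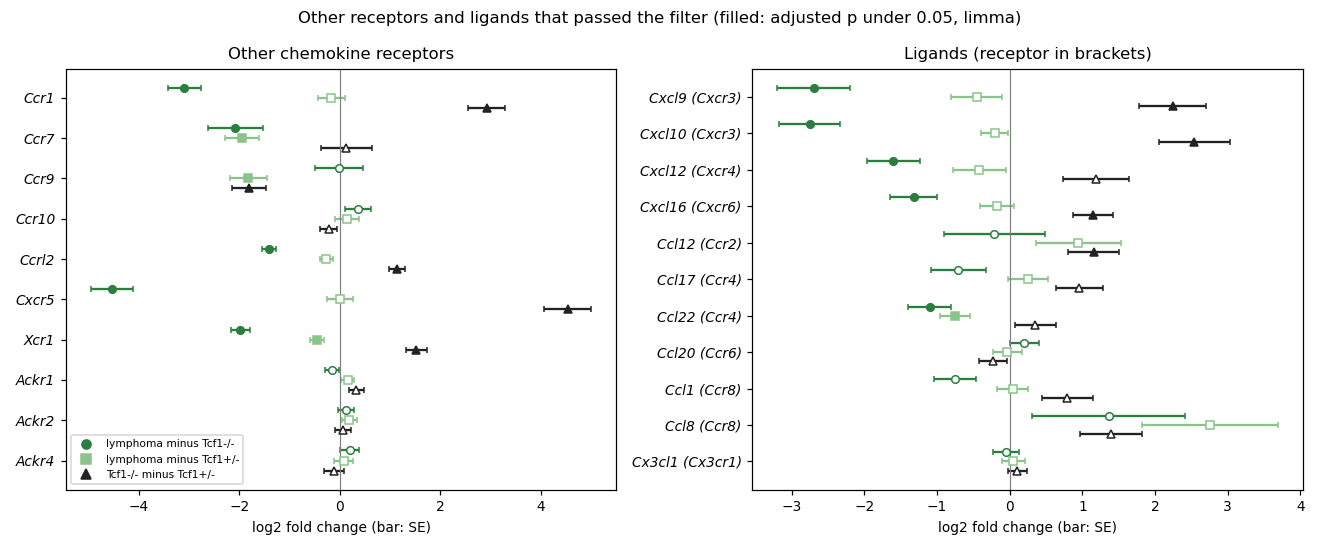
Log2 fold change (horizontal axis, bars the SE) of the other chemokine receptors and of the ligands that passed the filter (rows) in the 3 comparisons, with filled symbols at an adjusted p under 0.05 in limma. Cxcr5 and Ccr1 lie far right of 0 in Tcf1-/- minus Tcf1+/- and far left in lymphoma minus Tcf1-/-, and the Cxcr3 ligands Cxcl9 and Cxcl10 do the same.

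Of 15 other chemokine receptors listed, 13 were on the array with a single-symbol probe set and 10 passed the filter. In Tcf1-/- over Tcf1+/- thymi 4 were higher and 1 lower. Those higher were Cxcr5, the B-cell follicle receptor (4.53, limma adjusted p = 0.000244), Ccr1 of myeloid cells (2.93, 0.000685), Xcr1 of cross-presenting dendritic cells (1.52, 0.00121) and Ccrl2 (1.14, 0.00108). The 1 lower was Ccr9, the Ccl25 receptor of thymocytes (-1.80, limma adjusted p = 0.00541). Xcr1 passed the filter only through the 4 Tcf1-/- thymi, with 0 of 5 controls and 0 of 8 lymphomas above the 40th percentile. Its calls that involve the Tcf1-/- thymi therefore follow in part from the filter. With the floor its mean was 6.16 in Tcf1-/- and 4.80 in Tcf1+/- thymi. Lymphomas were lower than Tcf1-/- thymi in 5 of the 10, among them Cxcr5 (-4.54, limma adjusted p = 2.54e-05), Ccr1 (-3.10, 5.35e-05) and Ccr7 (-2.08, 0.0229), which leads mature thymocytes to the medulla. Against Tcf1+/- thymi 3 were called lower in lymphomas, Ccr7 (-1.95, limma adjusted p = 0.00252), Ccr9 (-1.82, 0.00621) and Xcr1, whose signal lay below the 40th percentile on every array of both groups, so that no size is given. Xcr1 and Ccr1 follow Cxcr6 on chromosome 9 with 0 coding genes between neighbors.

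Genes that act after the receptors were followed in a list of 21, of which 20 passed the filter. In Tcf1-/- over Tcf1+/- thymi 6 were higher, with a median of 0.36. Rgs1 (3.30, limma adjusted p = 0.00194) and Rgs18 (2.65, 0.00478), which shorten G-protein signals, and the receptor kinases Grk3 (1.55, 0.00434) and Grk5 (1.26, 0.0298), which switch activated receptors off, had the largest changes. In lymphomas over Tcf1-/- thymi 7 of 20 were lower, among them Rgs18 (-3.74, limma adjusted p = 3.02e-07, with all 8 lymphomas below the 40th percentile), Rgs1 (-3.47, 0.000365), Grk5 (-1.93, 0.000753) and Grk3 (-1.86, 0.000271). In lymphomas over Tcf1+/- thymi 4 were lower, Rgs18 (-1.09, limma adjusted p = 0.0476), Coro1a (-0.68, 0.0108), Grk5 (-0.66, 0.0105) and Pik3cg (-0.53, 0.0414). For Rgs18 only 3 of 5 Tcf1+/- thymi lay above the 40th percentile. With the floor its mean was 4.79 in lymphomas and 5.34 in Tcf1+/- thymi.

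Of 9 transcription factors of the lineages that carry these receptors, 7 passed the filter, and 4 were higher in Tcf1-/- than in Tcf1+/- thymi. They were Maf (3.52, limma adjusted p = 0.000482), Tbx21 (2.57, 0.00427), which encodes the T-box factor T-bet and is known to drive Cxcr3 in type-one helper T cells, Klf2 (2.07, 0.00779) and Id2 (1.96, 0.000489). In lymphomas over Tcf1-/- thymi 4 were lower, Tbx21 (-3.15, limma adjusted p = 0.000243), Klf2 (-2.24, 0.0299), Maf (-2.05, 0.0398) and Eomes (-1.03, 0.0457). Tbx21 was also lower in lymphomas than in Tcf1+/- thymi (-0.57, limma adjusted p = 0.0498). Only 3 of the 8 lymphomas lay above the 40th percentile for Tbx21. With the floor its mean was 4.87 in lymphomas and 5.24 in Tcf1+/- thymi.

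Markers of several other cell types moved with the receptors. In Tcf1-/- over Tcf1+/- thymi 11 of 11 markers of macrophages and monocytes were higher, as were 6 of 7 of dendritic cells, 6 of 6 of natural killer cells and 5 of 6 of B cells, while 6 of 7 of double positive thymocytes and 4 of 6 of T cells were lower. The mean log2 signal of the macrophage and monocyte markers was 5.89 to 8.52 in lymphomas, 9.04 to 11.14 in Tcf1-/- thymi and 6.85 to 8.05 in Tcf1+/- thymi. For the B-cell markers it was 6.47 to 7.88 in lymphomas, 9.52 to 11.28 in Tcf1-/- thymi and 6.89 to 7.39 in Tcf1+/- thymi. For natural killer cells it was 5.91 to 6.78 in lymphomas, 8.57 to 9.86 in Tcf1-/- thymi and 6.80 to 7.57 in Tcf1+/- thymi. In lymphomas over Tcf1-/- thymi 10 of 11 macrophage markers, 6 of 7 dendritic, 5 of 6 natural killer and 5 of 6 B-cell markers were lower. Markers listed for double positive thymocytes, the cells that make up most of a normal thymus, were at 8.42 to 11.28 in lymphomas, 9.64 to 10.52 in Tcf1-/- thymi and 11.26 to 11.96 in Tcf1+/- thymi. Ptcra, which is part of that mean, was called in no comparison and ran the other way. Its group means were 10.71 in lymphomas, 9.83 in Tcf1-/- thymi and 9.33 in Tcf1+/- thymi. In Tcf1-/- over Tcf1+/- thymi 3 of 5 markers of gamma-delta and innate-like T cells, 2 of 4 of regulatory T cells, 2 of 5 of neutrophils and 2 of 4 of fibroblasts were higher, and none of the 6 of thymic epithelium was called. The counts for regulatory T cells leave out Foxp3, which did not pass the filter. It lay above the 40th percentile in 3 of 4 Tcf1-/- thymi, 0 of 5 Tcf1+/- thymi and 0 of 8 lymphomas. In lymphomas over Tcf1-/- thymi 4 of 5 of neutrophils, 2 of 6 of thymic epithelium and 1 of 4 of regulatory T cells were lower, and none of gamma-delta and innate-like T cells or fibroblasts was called. The mean of the gamma-delta and innate-like T-cell markers was 6.28 to 7.96 in lymphomas, 7.54 to 8.43 in Tcf1-/- thymi and 6.28 to 6.64 in Tcf1+/- thymi, and that of the fibroblast markers was 4.71 to 6.97 in lymphomas, 5.96 to 6.53 in Tcf1-/- thymi and 4.91 to 5.14 in Tcf1+/- thymi. The part of any of these cells in the receptor signals was not tested.

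**Figure D5:**
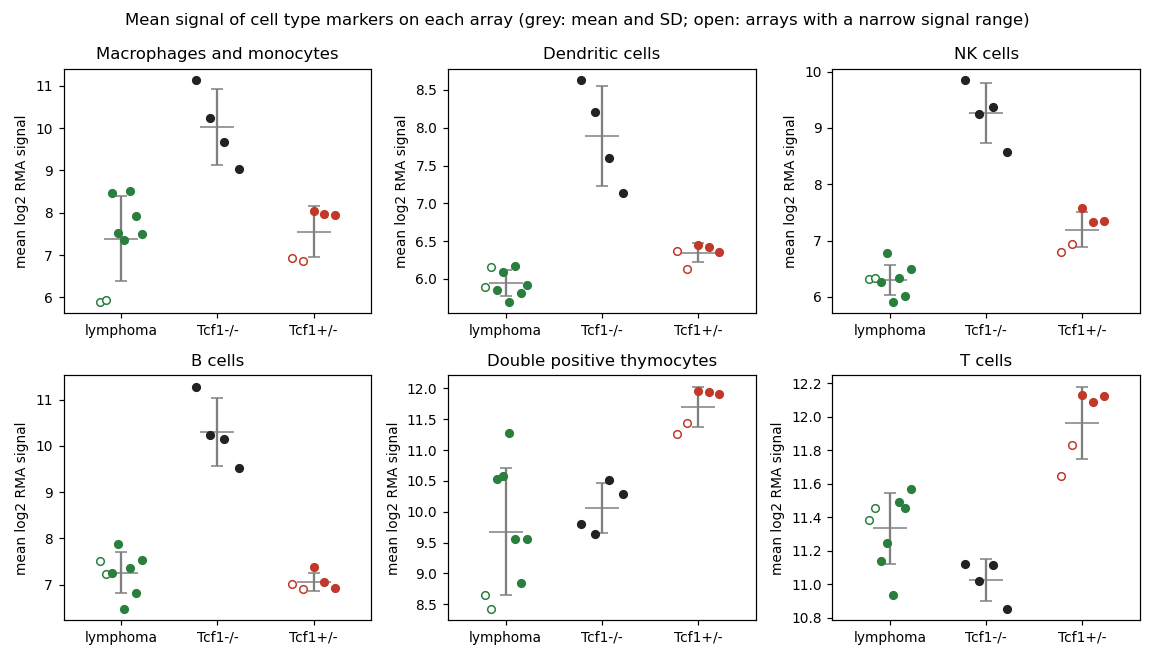
Mean log2 RMA signal (vertical axis) of the markers of 6 cell types on each array by group (horizontal axis), each point 1 mouse, grey lines the mean and SD, open points the 4 arrays that stood apart. For macrophages and monocytes, dendritic cells, NK cells and B cells all 4 Tcf1-/- thymi lie above all other mice, and for T cells all Tcf1+/- thymi lie above all other mice.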

How the data were processed

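RNA of the thymus of each mouse was measured on an Affymetrix whole-genome array of its own. The methods name homogenized thymocytes, with no purification given for these arrays. The authors processed the arrays by RMA (background correction, equalized distributions, probe sets summarized), and deposited them as log2 signals of each probe set. Whether the 17 arrays were normalized together is not given in the sources used here. Such values hide a change that most genes share.

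Of 45101 probe sets, 64 are controls, 34945 carry a single symbol, 932 several and 9160 none. The brightest single-symbol probe set stood for each of 18193 genes, and 13755 genes above the 40th percentile on at least 4 arrays were tested. Groups, taken from the labels, were compared in pairs with limma 3.58.1 in R 4.3.3 (a separate fit for each pair, eBayes, Benjamini-Hochberg, called at an adjusted p under 0.05), and receptors also by exact two-sided permutation tests. The fits were tested on simulated data. The receptors and lists were chosen with earlier results of these data known. Named genes are the 8 receptors, up to 4 called genes of each list by size of change, every ligand that passed the filter and the 3 genes most correlated with each receptor. Ccrl2, Foxp3 and Ptcra, outside this rule, were named after their values were seen. Some genes were not analysed here.

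Lymphomas and controls share mouse numbers. After subtraction of the group means, the 5 same-numbered pairs correlated at 0.246 to 0.625, with the same number closest in 2 of 5. The labels do not say what a number marks, and the 4 arrays with narrow signal carry the numbers 1 and 2. Blocking on the number keeps only shared numbers, which left out lymphomas 6 to 8 against Tcf1+/- thymi, lymphomas 5 to 8 against Tcf1-/- thymi, and control 5 in Tcf1-/- against Tcf1+/- thymi. Alternatives were all arrays in 1 fit, each mouse left out, the number as a block, other filters, probe sets, normalizations, variance models and thresholds, the Mann-Whitney U test that the methods name, the 4 arrays left out and Y-linked signal as a covariate. The array set as a block, the other probe sets and the floor on low signal were chosen after the data had been seen. Quantitative PCR, reporter and protein measurements were not used.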

Additional observations from a re-analysis of the deposited data

Results flagged for a closer look

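Of 24 combinations of receptor and group, 3 held a mouse whose log2 signal lay further from the rest of its group than Dixon's critical value allows, where chance gives about 1 in 20. All 3 are lymphomas. Cxcr3 in lymphoma 5 was 5.21 against 5.92 in the nearest lymphoma, a gap of 0.538 of the range of the group. Cxcr6 in lymphoma 4 was 9.07, with the nearest lymphoma at 6.04 and a gap of 0.603. Lymphoma 4 was also the highest lymphoma for Ccr2 (7.27), Ccr6 (7.54) and Ccr8 (4.61). Cx3cr1 in lymphoma 3 was 6.15, with the nearest lymphoma at 5.00 and a gap of 0.607.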

How the results depend on the processing

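Of 620 values of single receptors under the alternatives, 562 kept their direction and their side of the threshold, 26 lost and 21 gained a call, and 11 changed sign. For Tcf1-/- against Tcf1+/- thymi, 6 receptors were called, 6 to 7 with 1 mouse left out. The exact Mann-Whitney U test called 0 after adjustment, where all 6 reached 0.0159, the smallest unadjusted p that the design allows, with an adjusted p of 0.0944. For lymphomas against Tcf1-/- thymi the count was 5 to 6 with 1 mouse left out and 4 to 7 over all 26 alternatives, against 6. There, with Y-linked signal as a covariate, 5 receptors had an unadjusted limma p under 0.05, against 7 in the main fit. For lymphomas against Tcf1+/- thymi the count called was 0 to 3 with 1 mouse left out, against 1. It was 2 with all 17 arrays in 1 fit or with trend and robust variances, 3 with the mean of probe sets or without the 4 arrays that stood apart, and 4 with the array set as a block, chosen after seeing the data. In limma it was 0 after subtraction of Abl1 (4 at an unadjusted p under 0.05), with an added log2 threshold of 1 (1 unadjusted), with Y-linked signal as a covariate (1 unadjusted) or without control 3 (2 unadjusted), and the Mann-Whitney U test called 1.

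Ccr8 in Tcf1-/- over Tcf1+/- thymi (0.05) ran between -0.0801 and 0.182 with 1 mouse left out, and turned to -0.0214 with Abl1, to -0.28 without the 4 arrays or with their set as a block, and to -0.0754 with the Y-linked covariate. In lymphomas over Tcf1+/- thymi Cx3cr1 turned to 0.0438 on its second probe set, with or without the other probe sets in the fit, and Ccr6 to 0.0269 with the Y-linked covariate. The causes were not tested. Over all genes, 2037 were called for Tcf1-/- against Tcf1+/- thymi (0 by the Mann-Whitney U test, otherwise 1257 to 3418 under the alternatives), 2020 for lymphomas against Tcf1-/- thymi (387 to 2722) and 1749 for lymphomas against Tcf1+/- thymi (854 to 3753). Without the 4 arrays, 46.4% of the called genes were higher in Tcf1-/- than in Tcf1+/- thymi in place of 68.2%, and 47.6% in lymphomas over Tcf1+/- thymi in place of 66.9%.

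With the mouse number as a block, 5 receptors were called for Tcf1-/- against Tcf1+/- thymi (Cxcr4 lost, -0.92, limma adjusted p = 0.0609), 5 for lymphomas against Tcf1-/- thymi (Ccr8 lost, -0.62, limma adjusted p = 0.223) and 1 for lymphomas against Tcf1+/- thymi. These fits also leave out mice (lymphomas 5 to 8 for Ccr8), so the block and the smaller number cannot be told apart. Same-numbered arrays correlated at -0.286 to 0.120 and at -0.189 to 0.0912 in the first and second of these, so they share only a number there. The number of arrays and, for Ccr8, signal near the filter limit the precision.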
